A study of Mus musculus with 6 samples.

Results

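Interferon-stimulated genes are the genes that cells switch on after type I or type II interferon, together with the transcription factors that switch them on. In mouse bone marrow LSK cells that carried a Hhex retrovirus, 11 of 43 such genes were higher and 1 was lower than in cells with the vector alone. The genes were taken by symbol from a list of 44 that was fixed with earlier results of these data known. Of the 12161 genes measured, 43 matched. The counts below therefore describe this list and are no independent check. Ifit3 was not analysed here.

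LSK cells are the lineage-negative, Sca1-positive, Kit-positive marrow fraction that holds blood stem cells and early progenitors. They were sorted from C57BL/6 mice whose age is not given in the sources used here, exposed to virus on coated plates and cultured for 2 days with IL-3, IL-6, stem cell factor and Flt3 ligand. MIG is the control vector (3 libraries, genotype label wild-type) and MIG-Hhex the same vector with Hhex, a homeobox transcription factor (3 libraries, genotype label Hhex). RNA came from cells that sorted positive for GFP, so both groups had met a retrovirus and no group without virus is part of the comparison. Each group has replicates WT3, WT691 and WT703. Both WT3 libraries were sequenced on flow cell C3RJFACXX and the other 4 on flow cell C5LWPANXX.

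As background, type I interferon binds the receptor pair IFNAR1 and IFNAR2, whose kinases JAK1 and TYK2 phosphorylate STAT proteins. STAT2 and IRF9 are parts of the resulting complex ISGF3, which binds the interferon-stimulated response element of its target genes. Type II interferon acts through IFNGR1 and IFNGR2 and STAT dimers that bind the gamma-activated site. In blood stem cells, interferon is known to drive dormant cells into division, and many of these genes are also expressed at a basal level without infection.

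Each gene has a deposited log2 value per library, and differences are MIG-Hhex minus MIG on that log2 scale. The test was limma over all genes, adjusted for the flow cell, and a gene was called at a Benjamini-Hochberg adjusted p under 0.05. Hhex itself stood at 5.18, 5.05 and 5.13 in the MIG libraries of WT3, WT691 and WT703 and at 7.61, 9.34 and 9.06 with MIG-Hhex. The deposited values carry no read counts, so depth is unknown. Library medians lay between 3.56 and 3.60. The labels do not say whether the replicates were separate mice. The WT703 libraries had high Ddx3y, a Y-linked gene, and low Xist, the reverse of the other 4, so they came from other animals than those. Whether WT3 and WT691 were separate animals is not given, and p-values measure the spread between these libraries. Of the markers listed for LSK cells, Kit and Cd34 were present in every library (MIG means 4.73 and 7.29). Ly6a, which encodes Sca1, stood at 3.18 and 3.55 in the libraries of WT3 and between 5.89 and 6.25 in the other 4. Of all 8 LSK markers, 0 rose and 1 fell, against 9.44% and 8.52% of all genes. The one that fell was Meis1, a stem cell homeobox gene (−0.79, SE 0.13, limma adjusted p = 0.0107). Mecom, a stem cell regulator, and Flt3, a progenitor receptor, had differences of −0.95 and −0.47, negative in each pair, and did not pass.

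Of the 43 genes, 11 (25.6%) rose and 1 (2.33%) fell, against 9.44% and 8.52% of all 12161 genes. A positive difference was found for 41 of the 43, against 46.1% of all genes. Their median difference was 0.56, against −0.02 over all genes. In 16 of the 43, every MIG-Hhex library lay above every MIG library, which held for 10.2% of all genes. Only Ifit2 had every MIG-Hhex library below every MIG library (11.0% of all genes). With the replicate number as a block in place of the flow cell, 19 of the 43 were higher and 1 lower (limma, 12.4% and 12.1% of all genes). The 8 genes gained were Irf7, Irf9, Dhx58, Mx1, Eif2ak2, Adar, Gbp3 and Gbp7, and 0 of the 11 were lost.

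**Figure D1:**
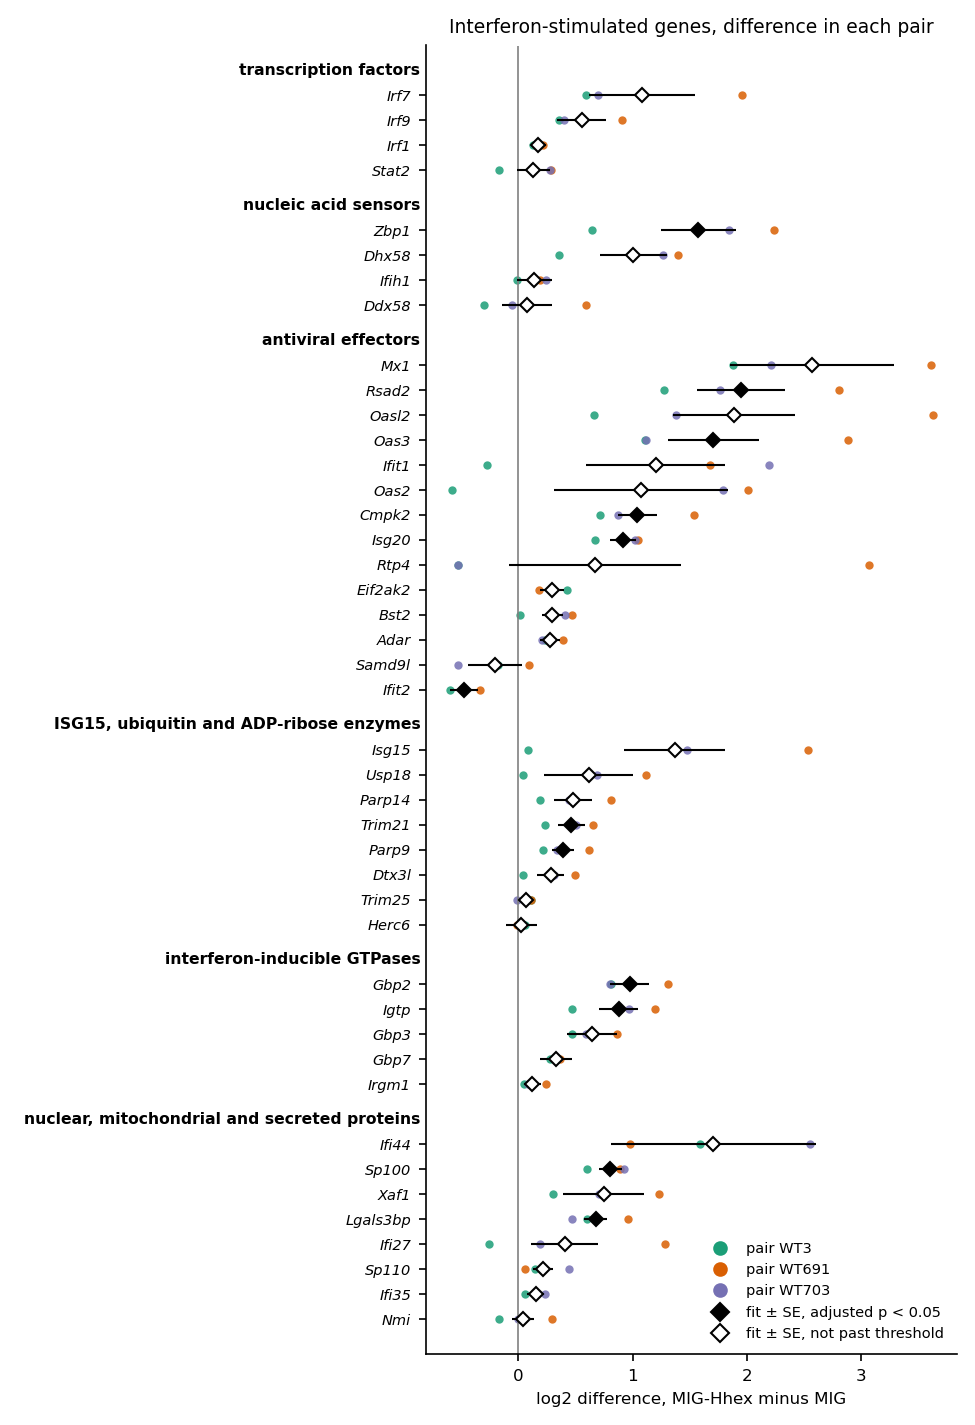
Difference between MIG-Hhex and MIG on the log2 scale (x axis) for the 43 genes, grouped by role (y axis), in each replicate pair (coloured points) and in the fit with its standard error (diamonds, filled where the adjusted p was under 0.05). The WT691 points lie farthest to the right for most genes, and Ifit2 is the only filled diamond left of 0.

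The size of the shift differed between the pairs. The members' median difference was 0.22 in the pair of WT3, 0.89 in the pair of WT691 and 0.45 in the pair of WT703. A positive difference was found for 33, 41 and 37 of the 43 genes in these pairs. Hhex itself differed by 2.43, 4.29 and 3.93 in the same 3 pairs. One library stood out: 34 of the 43 genes had their highest value in the MIG-Hhex library of WT691. The lowest value lay in the MIG library of WT703 for 18 genes, of WT3 for 11 and of WT691 for 10. Measured from each gene's mean over the 6 libraries, the median member lay at −0.17, −0.14 and −0.37 in the MIG libraries of WT3, WT691 and WT703. It lay at −0.01, 0.63 and 0.21 in the MIG-Hhex libraries. The corresponding median over all genes stayed between −0.02 and 0.03.

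**Figure D2:**
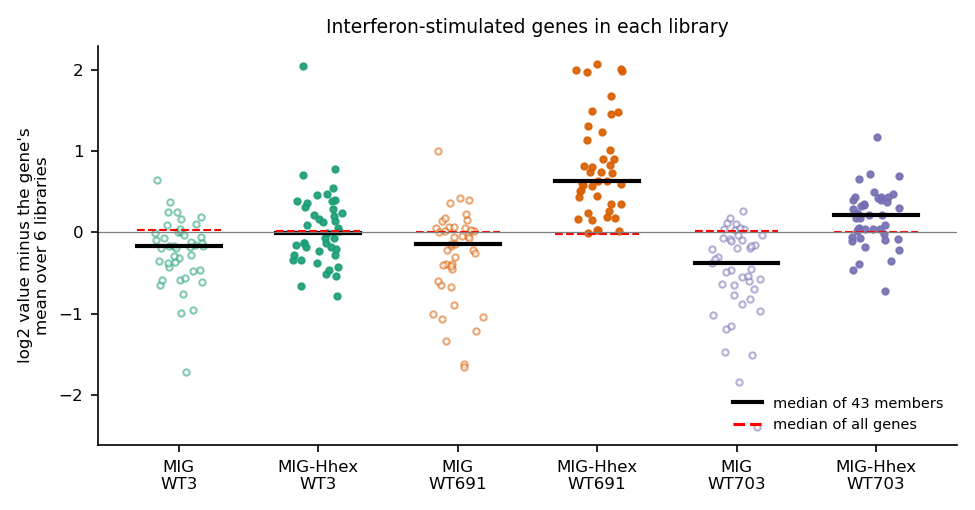
Log2 value of each of the 43 genes minus its own mean over the 6 libraries (y axis), by library (x axis); open points are MIG, filled points MIG-Hhex, black bars the median of the 43 genes and dashed red bars the median of all genes. The median member stands highest, at 0.63, in the MIG-Hhex library of WT691 and lowest, at −0.37, in the MIG library of WT703.

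Leaving out that highest library left 6 of the 43 genes higher (3.72% of all genes) and a median difference of 0.30. Without the MIG library of WT703, 4 were higher (4.31% of all genes), and without its MIG-Hhex library 7 (5.55%). Without both WT703 libraries 2 were higher, Sp100 and Lgals3bp (2.92% of all genes). Without both WT691 libraries 7 were higher (5.16%), and without both WT3 libraries, that is within flow cell C5LWPANXX, 10 (5.74% of all genes). In that flow cell the median difference was 0.72, and Isg15 and Bst2 were among the genes called. C3RJFACXX carried 1 pair, too few for a test. The calls over all genes thus fell in number in these fits too.

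Of the transcription factors, 0 of 4 passed the test, with differences from 0.13 to 1.08 (limma). An unadjusted limma p under 0.05 was found for 2 of 4. Over all genes 9.44% rose and 8.52% fell, the shares to set beside the count of each role group. Irf7, which amplifies type I interferon production, stood at 0.50, −0.33 and −0.84 in the MIG libraries of WT3, WT691 and WT703 and at 1.10, 1.62 and −0.15 with MIG-Hhex. Its groups overlapped, and its difference was 1.08 (SE 0.46, limma adjusted p = 0.154; with the replicate block 0.047). Irf9, the DNA-binding part of ISGF3, stood at 2.70, 2.73 and 2.43 against 3.06, 3.64 and 2.83. Every MIG-Hhex library lay above every MIG library, with a difference of 0.56 (SE 0.22, limma adjusted p = 0.123; with the replicate block 0.0266). Stat2, the STAT protein particular to type I signalling, had 2.27, 2.40 and 2.14 against 2.11, 2.68 and 2.42, overlapping groups and a difference of 0.13 (SE 0.15). Irf1, a factor induced mainly by type II interferon, had 3.16, 3.50 and 3.52 against 3.30, 3.72 and 3.69. It was higher in each pair, by 0.13 to 0.22, and the groups overlapped (difference 0.17, SE 0.07, limma adjusted p = 0.118).

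Among the sensors of foreign nucleic acid, 1 of 4 rose, against 9.44% of all genes. Zbp1, which binds Z-form nucleic acid and can trigger necroptosis, stood at 0.28, −0.55 and −0.74 in the MIG libraries of WT3, WT691 and WT703. With MIG-Hhex it stood at 0.92, 1.68 and 1.11, so the groups did not overlap. The rise was 2.98-fold (log2 1.58, SE 0.33, limma adjusted p = 0.023). Dhx58 encodes LGP2, a regulator of the RNA sensors, and had 1.61, 1.38 and 0.79 against 1.97, 2.77 and 2.06. Its groups did not overlap, but it did not pass (difference 1.01, SE 0.29, limma adjusted p = 0.0605; with the replicate block 0.0221). Both RNA sensors themselves showed little difference. Ifih1 (MDA5), the sensor with the highest mean, stood at 1.66, 1.98 and 1.62 against 1.64, 2.17 and 1.87, and its difference was 0.14 (SE 0.15). Ddx58 (RIG-I) had a difference of 0.08 (SE 0.22).

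The antiviral effectors held the largest differences of the list and its only fall. Of 14 measured, 4 rose (28.6%), 1 fell (7.14%) and 9 did not pass, against 9.44% higher and 8.52% lower of all genes. Rsad2 encodes viperin, which makes a chain-terminating nucleotide from CTP. It stood at −2.63, −2.97 and −2.24 in the MIG libraries of WT3, WT691 and WT703 and at −1.36, −0.17 and −0.48 with MIG-Hhex. The groups were separate, and the rise was 3.86-fold (log2 1.95, SE 0.39, limma adjusted p = 0.0194). Cmpk2, a mitochondrial nucleotide kinase, is the next member along chromosome 12, 12.7 kb beyond Rsad2. It had 2.07, 1.19 and 1.44 against 2.79, 2.72 and 2.32, without overlap, a rise of 2.06-fold (log2 1.04, SE 0.17, limma adjusted p = 0.011). On this log2 scale of levels per length, Cmpk2 stood above Rsad2 in each of the 6 libraries.

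Oas3 makes oligoadenylates, messengers that trigger RNA decay. Its values were −1.11, −1.68 and −1.16 with MIG and −0.0034, 1.21 and −0.039 with MIG-Hhex in WT3, WT691 and WT703. The groups did not overlap, and it rose 3.26-fold (log2 1.71, SE 0.40, limma adjusted p = 0.0328). Such low values depend on the offset of the log2 scale. With 1 added on the linear scale, the difference was 0.74 for Oas3, which was then not called (limma adjusted p = 0.0512). It was 0.50 for Rsad2 and 0.90 for Zbp1, both still called, and the median over the 43 genes was 0.31. Its neighbour Oas2, 3.21 kb away, had a difference of 1.08 (SE 0.76) and overlapping groups. Isg20, an exonuclease that degrades RNA, had 2.11, 1.63 and 1.59 against 2.78, 2.68 and 2.61. The MIG-Hhex libraries were close together (2.69 ± 0.09, SD, n = 3) and all above the MIG libraries (1.78 ± 0.29, SD, n = 3), a rise of 1.88-fold (limma adjusted p = 0.00483).

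Ifit2 moved the other way. It belongs to the IFIT family, which binds viral RNA and blocks its translation, and stood at 2.05, 2.33 and 2.24 with MIG and at 1.45, 1.99 and 1.75 with MIG-Hhex. Every MIG-Hhex library lay below every MIG library, and the difference was −0.47 (SE 0.12, 1.39-fold lower, limma adjusted p = 0.0402). Ifit1 lies 64.4 kb from Ifit2 on chromosome 19 and had −1.92, −2.07 and −3.35 against −2.19, −0.39 and −1.16. It was lower in the pair of WT3 and higher in the other 2, with overlapping groups (difference 1.20, SE 0.61, limma adjusted p = 0.215). In RefSeq, Ifit1 overlaps Ifit1bl1, so reads of these could not be told apart by position alone.

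The remaining effectors did not pass. Mx1, an antiviral GTPase that is defective in most laboratory mouse strains, C57BL/6 among them, had the largest difference of the list, 2.57 (SE 0.72, limma adjusted p = 0.0538; with the replicate block 0.0246). It rested on very low values of −3.04, −4.82 and −5.60 against −1.16, −1.21 and −3.39, and its groups overlapped. Oasl2, an OAS-like protein, had −0.35, −1.71 and −0.93 against 0.31, 1.92 and 0.45, a difference of 1.89 (SE 0.54, limma adjusted p = 0.0559). Bst2 (tetherin, which holds budding virus at the cell surface) had the highest level of all 43 genes. It stood at 7.41, 6.58 and 6.66 against 7.42, 7.05 and 7.07, a difference of 0.30 (SE 0.09, limma adjusted p = 0.073). Eif2ak2 (the kinase PKR) and Adar (the RNA-editing deaminase) had differences of 0.30 and 0.28, positive in each pair, and were called with the replicate block (limma adjusted p = 0.0357 and 0.0366). Rtp4, a receptor transporter protein, was 3.07 higher in the pair of WT691 and 0.53 lower in each of the other pairs. Samd9l, a restriction factor that curbs blood cell growth, had a difference of −0.21 (SE 0.24).

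**Figure D3:**
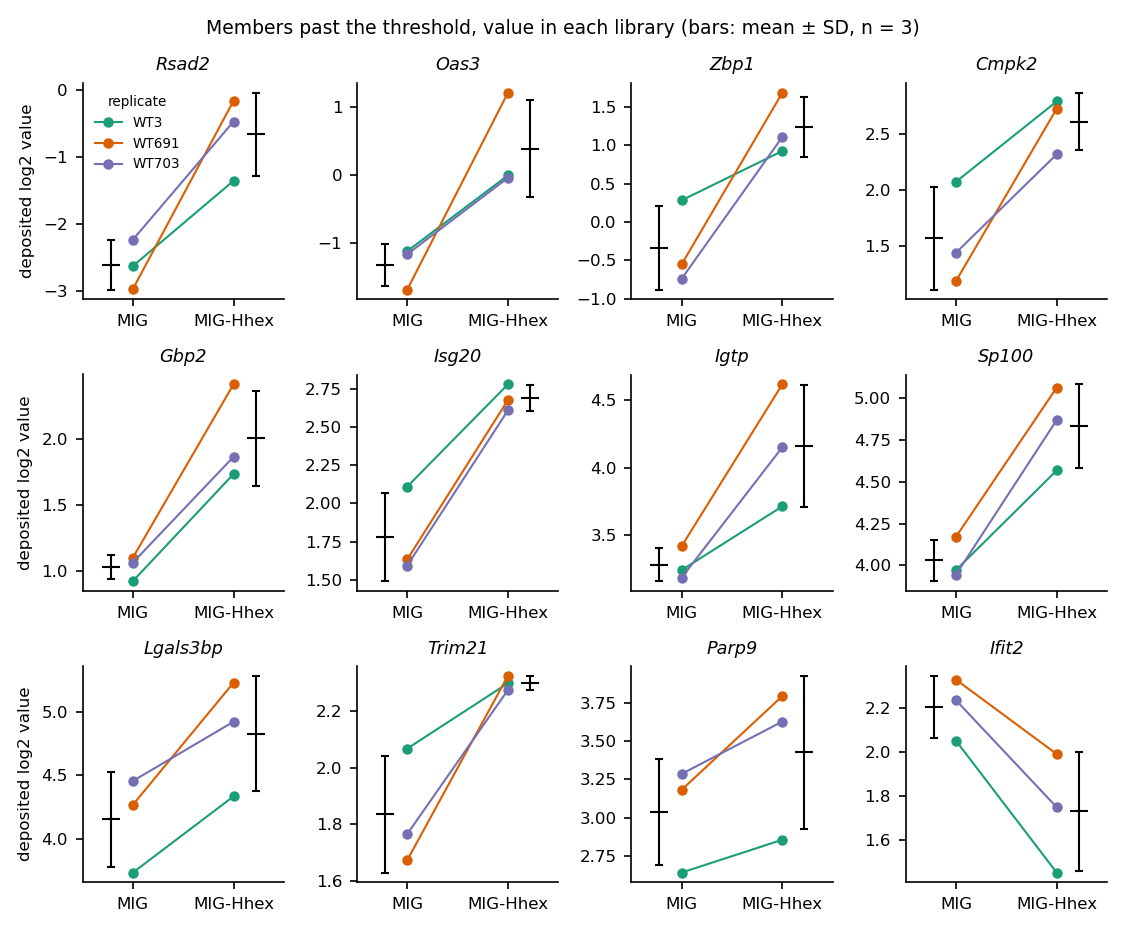
Deposited log2 value (y axis) of the 12 genes past the threshold in each MIG and MIG-Hhex library (x axis); lines join libraries of the same replicate, and black bars give the mean and SD of 3 libraries. All lines rise except those of Ifit2, and Parp9 and Lgals3bp show replicate differences as large as the difference between the vectors.

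Of the 8 genes for ISG15 conjugation, ubiquitin and ADP-ribose, 2 rose, against 9.44% of all genes. Isg15 encodes the ubiquitin-like protein that is attached to other proteins after interferon. Its values were 0.95, −0.09 and −0.07 with MIG and 1.04, 2.44 and 1.41 with MIG-Hhex in WT3, WT691 and WT703. The groups did not overlap, but the pair of WT3 differed by 0.08 and that of WT691 by 2.54. Its difference of 1.37 (SE 0.44) did not pass (limma adjusted p = 0.0798). The enzymes around it also did not pass: Usp18, which removes ISG15 and dampens the type I receptor, had 0.62 (SE 0.39), and Herc6, the mouse ligase for ISG15, had 0.03 (SE 0.13).

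Trim21, a ubiquitin ligase that binds antibody-coated virus, stood at 2.07, 1.67 and 1.77 with MIG and at 2.30, 2.32 and 2.27 with MIG-Hhex. It rose 1.38-fold without overlap (log2 0.46, SE 0.12, limma adjusted p = 0.0407). Parp9, which works with the ligase Dtx3l, had 2.64, 3.18 and 3.29 against 2.85, 3.80 and 3.63. It was higher in each pair and rose 1.31-fold (log2 0.39, SE 0.10, limma adjusted p = 0.0365), although the groups overlapped. Dtx3l (0.28, SE 0.11) and the ADP-ribosyltransferase Parp14 (0.48, SE 0.17) did not pass. The RefSeq models of Parp9 and Dtx3l share 558 bases, so a part of their reads is ambiguous. Trim25, a ligase that assists RIG-I and the highest of the group, had 4.58, 4.81 and 4.80 against 4.69, 4.93 and 4.78, a difference of 0.07 (SE 0.06).

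The interferon-inducible GTPases were higher in every pair in 5 of 5 genes (27.5% of all genes were higher in all 3 pairs). Of the 5, 2 rose, against 9.44% of all genes. These GTPases attack the membranes around intracellular pathogens. Gbp2, a guanylate-binding protein, stood at 0.92, 1.10 and 1.06 with MIG and at 1.73, 2.41 and 1.86 with MIG-Hhex. The MIG libraries were tight (1.03 ± 0.09, SD, n = 3), the groups separate, and the rise was 1.96-fold (log2 0.97, SE 0.17, limma adjusted p = 0.0143). Igtp, an immunity-related GTPase, had 3.24, 3.42 and 3.19 against 3.71, 4.62 and 4.15, a rise of 1.84-fold without overlap (log2 0.88, SE 0.17, limma adjusted p = 0.0193).

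Gbp7, Gbp3 and Gbp2 follow one another on chromosome 3, with gaps of 9.86 and 47.4 kb, and their differences were 0.33, 0.64 and 0.97. Gbp3 stood at 3.56, 3.85 and 3.36 against 4.03, 4.71 and 3.95 (difference 0.64, SE 0.22, limma adjusted p = 0.0896). Gbp7, with the highest mean of the group, had 3.59, 4.38 and 3.99 against 3.87, 4.75 and 4.33 (limma adjusted p = 0.156). Both were called with the replicate block (limma adjusted p = 0.00587 and 0.0116). Guanylate-binding proteins are close paralogs, so reads shared between copies make their single values uncertain. Irgm1, which regulates the other immunity-related GTPases, had a difference of 0.12 (SE 0.08) and separate groups.

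The last group holds nuclear, mitochondrial and secreted proteins, and 2 of 8 rose, against 9.44% of all genes. Sp100, a component of nuclear bodies, stood at 3.97, 4.17 and 3.94 with MIG and at 4.57, 5.06 and 4.87 with MIG-Hhex in WT3, WT691 and WT703. The groups were far apart for their spread, and the rise was 1.75-fold (log2 0.81, SE 0.10, limma adjusted p = 0.00516). Sp110, another nuclear body protein 39.1 kb from Sp100 on chromosome 1, had a difference of 0.22 (SE 0.09, limma adjusted p = 0.142) with separate groups, and its RefSeq model overlaps that of Sp140. Lgals3bp, a secreted ligand of galectins, had 3.73, 4.27 and 4.46 against 4.33, 5.23 and 4.92. It was higher in each pair, by 0.47 to 0.96, and rose 1.60-fold (log2 0.68, SE 0.10, limma adjusted p = 0.00788), with overlapping groups.

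The other 5 genes did not pass. Ifi44, whose values lay between −5.71 and −1.88, had a difference of 1.71 (SE 0.90), and Xaf1, which binds an inhibitor of apoptosis, one of 0.75 (SE 0.35). Ifi27, a small mitochondrial protein, was 1.28 higher in the pair of WT691 and 0.26 lower in that of WT3. Its RefSeq model overlaps that of Ifi27l2a. Ifi35, the highest of the group, had 4.92, 4.53 and 4.35 against 4.98, 4.69 and 4.58 (difference 0.15, SE 0.07), and its binding partner Nmi had 0.04 (SE 0.09).

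Weakly expressed members had larger positive differences. Across the 43 genes, the mean level and the signed difference had a Spearman correlation of −0.58, against 0.01 across all 12161 genes. The genes share the same 6 libraries and are not independent. The 9 members with a mean below 0 had a median difference of 1.71, with a median SE of 0.61. The 17 with a mean from 0 to 3 had 0.56 and a median SE of 0.17, and the 17 at 3 or above had 0.30 and a median SE of 0.10. All genes in the same 3 classes had median differences of −0.06, −0.02 and −0.02, with median SEs of 0.37, 0.15 and 0.07. Rises and falls offset each other in these signed values over all genes. They therefore do not show whether low genes of any kind differ more in size. In these classes 2, 5 and 4 members were higher, against 8.07%, 11.1% and 8.94% of all genes, and 0, 1 and 0 were lower. The larger differences of low members came with larger errors, and errors were larger for low genes of any kind too.

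**Figure D4:**
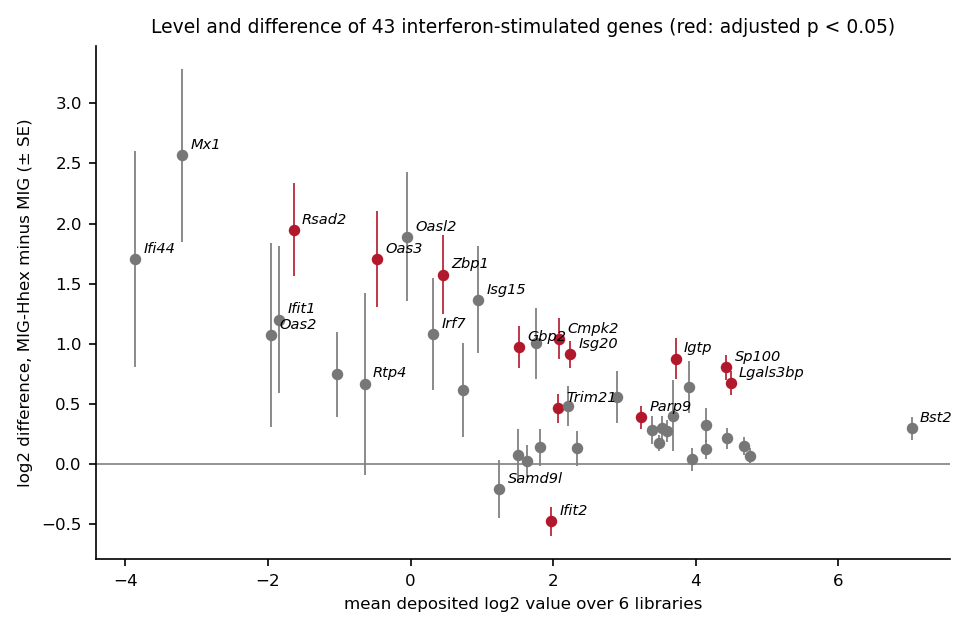
Difference between MIG-Hhex and MIG on the log2 scale with its standard error (y axis) against the mean log2 value over 6 libraries (x axis) for the 43 genes, red where the adjusted p was under 0.05. Differences above 1.5 occur only at means below 1, while Bst2, the gene with the highest mean, lies at 0.30.

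The calls rested on few libraries. Dropping each library and each replicate pair in turn gave 9 fits, and in these Sp100 and Lgals3bp were called each time (largest adjusted p 0.0322 and 0.0361 by limma). The 3 fits that dropped WT3 libraries gave the same differences, because the flow cell term takes up a lone library of C3RJFACXX. Those 3 are thus not separate checks. Cmpk2 and Isg20 missed the threshold only without both WT703 libraries (0.0681 and 0.0528). Igtp missed it without the MIG library of WT703 (0.0678) or both (0.0769). Gbp2 missed it without the MIG library of WT703 (0.0585), both WT703 libraries (0.0566) or the MIG-Hhex library of WT3 (0.0501). Rsad2 missed it without the MIG-Hhex library of WT691 (0.0889) or both (0.0936), and without the MIG (0.0571), the MIG-Hhex (0.0653) or both (0.106) of WT703. Zbp1 was called only in the 3 runs that dropped WT3 libraries, and reached 0.121 without both WT703 libraries. Oas3 was called only without the MIG-Hhex library of WT703, and was at 0.0922 without both of that replicate. Trim21, Parp9 and Ifit2 missed it in all 9 runs (up to 0.183, 0.164 and 0.151). Without a term for the flow cell, 0 of the 43 genes were called (limma; 17 had an unadjusted p under 0.05). Few genes of any kind were called in that fit, 0.979% of all genes higher and 0.806% lower.

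The promoters of several members carry the letters of the interferon-stimulated response element, and they are shown here to place the genes above beside the sequence that ISGF3 reads. RefSeq windows of GRCm38.p6, from 250 bases before to 50 bases after the annotated start, were found for 34 of the 43 genes. Its core, GAAA and GAAA with any 2 bases between, on either strand, was present for 15 of the 34 (44.1%), against 3.76% of 9699 measured genes and 3.99% of all 27025 genes with a window. The gamma-activated site TTCNNNGAA, which reads alike on both strands, was present for 9 of the 34 (26.5%), against 8.49% and 9.55%. A match says that the letters are there, not that a factor binds, and matches of the motifs may overlap. The stretches below run 5′ to 3′ on the gene's strand. Capitals mark the fixed letters of each match to the response element, and the letters between them stay in lower case. Rsad2, Oas3, Gbp2 and Igtp were called higher. Gbp3, Gbp7, Isg15 and Ifit1 were not.
Rsad2: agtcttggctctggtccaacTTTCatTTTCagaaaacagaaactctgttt
Oas3: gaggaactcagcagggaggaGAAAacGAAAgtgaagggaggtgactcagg
Gbp2: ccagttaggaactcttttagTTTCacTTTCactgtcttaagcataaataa
Igtp: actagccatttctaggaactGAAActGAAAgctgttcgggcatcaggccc
Gbp3: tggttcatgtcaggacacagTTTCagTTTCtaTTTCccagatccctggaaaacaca
Gbp7: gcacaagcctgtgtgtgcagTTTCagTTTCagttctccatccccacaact
Isg15: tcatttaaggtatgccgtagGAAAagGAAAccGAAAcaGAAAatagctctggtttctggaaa
Ifit1: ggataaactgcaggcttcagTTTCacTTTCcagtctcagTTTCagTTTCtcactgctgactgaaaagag

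The called genes themselves lie, in GRCm38.p6, at chr2:173206612-173218959 (Zbp1), chr12:26442743-26456452 (Rsad2), chr12:26469117-26479837 (Cmpk2), chr7:78913396-78920396 (Isg20), chr5:120753098-120777684 (Oas3), chr19:34550550-34576534 (Ifit2), chr7:102557920-102565482 (Trim21), chr16:35938470-35972621 (Parp9), chr3:142620663-142638008 (Gbp2), chr11:58199556-58207592 (Igtp), chr1:85649948-85709998 (Sp100) and chr11:118392747-118401959 (Lgals3bp). The stretches lie at chr12:26456543-26456592 (minus strand) for Rsad2, chr5:120777705-120777754 (minus) for Oas3, chr3:142620584-142620633 (plus) for Gbp2 and chr11:58199502-58199551 (plus) for Igtp. Those of Gbp3, Gbp7 and Ifit1 lie at chr3:142559979-142560034, chr3:142530263-142530312 and chr19:34640765-34640833 (all plus), and that of Isg15 at chr4:156200855-156200916 (minus). The matches nearest to the start began 120 bases before it in Rsad2, 75 in Oas3, 59 in Gbp2, 34 in Igtp, 39 in Gbp3, 53 in Gbp7, 66 in Isg15 and 85 in Ifit1. Isg15 held 3 overlapping matches, and Gbp3 and Ifit1 held 2 each. The number of matches did not order the differences: Isg15 had 1.37, Ifit1 1.20 and Gbp3 0.64, while Rsad2 with 1 match had 1.95 and Gbp7 with 1 had 0.33. The 15 members with a match to the response element had a median difference of 0.46 (0.08 to 1.95, 5 called higher, 0 lower). The 19 without one had 0.28 (−0.47 to 1.89, 4 higher, 1 lower), among them Cmpk2, Isg20, Sp100, Lgals3bp and Ifit2. For the gamma-activated site the order was the reverse. The 9 members with a match had a median of 0.30 (2 higher, 1 lower), and the 25 without one had 0.64 (7 higher, 0 lower). Over all genes 9.44% were higher and 8.52% lower. Outside both splits are the 9 members without a window: Zbp1, Parp9, Mx1, Oas2, Dhx58, Rtp4, Usp18, Parp14 and Ifi27. Of these, Zbp1 and Parp9 were called higher, and Mx1 had the largest difference of the list (2.57).

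Other genes of the interferon pathway were taken from fixed lists of 135 genes that hold no member, and 110 of them were measured. These lists too were chosen with earlier results of these data known. Of the 110 measured, 22 rose (20%) and 8 fell (7.27%), against the same 9.44% and 8.52% of all genes, and their median difference was 0.16. With the replicate block 34 were higher and 11 lower (limma), against 12.4% and 12.1% of all genes. Without the MIG-Hhex library of WT691 or without both WT703 libraries, 5 were higher (3.72% and 2.92% of all genes). Of 10 interferon genes in the lists, 0 were measured, and the ligands were not analysed here.

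Of the 9 receptors and kinases, 1 rose and 1 fell, a share near that of all genes. Ifnar1 and Ifnar2, the type I receptor chains, had differences of −0.07 (SE 0.09) and 0.10 (SE 0.06). Ifngr1, the ligand-binding chain for type II interferon, had −0.02 (SE 0.08) and Jak1 0.03 (SE 0.06). Ifnlr1, the receptor for type III interferon, had the largest difference of the list, 1.97 (SE 0.85, limma adjusted p = 0.157). Its groups did not overlap, but its values were low, from −5.40 to −2.06 with MIG and from −1.56 to −1.42 with MIG-Hhex. Its partner chain Il10rb had −0.04 (SE 0.09). Jak2, a kinase of the type II receptor, had −0.36 (SE 0.14), negative in each pair (limma adjusted p = 0.129; with the replicate block 0.0458). Ifngr2, the second type II chain, fell by 0.41 (SE 0.10, limma adjusted p = 0.0372), from 5.22, 4.94 and 4.71 to 4.78, 4.59 and 4.28. The groups overlapped, but each pair fell. Tyk2, the kinase on Ifnar1, rose by 0.47 (SE 0.09, limma adjusted p = 0.0194), from 3.65, 3.86 and 3.55 to 4.08, 4.23 and 4.16, without overlap. Leaving out libraries ended the call of Ifngr2 in 7 of 9 fits (largest limma adjusted p 0.141) and of Tyk2 in 6 (0.0818).

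Of 9 other STAT and IRF factors, 4 rose (44.4%) and 0 fell, against 9.44% and 8.52% of all genes. Irf8, a factor of monocyte and dendritic cell fate, rose by 0.54 (SE 0.06, limma adjusted p = 0.00372). Irf5, found in macrophages and B cells, rose by 1.30 (SE 0.26) from 3.66, 2.56 and 1.87 to 4.32, 4.02 and 3.65. Stat3, which signals for IL-6, rose by 0.21 (SE 0.05). Irf8 was called in all 9 fits with libraries dropped, Irf5 in 6 and Stat3 in 0 (largest limma adjusted p 0.0322, 0.0725 and 0.155).

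Among 15 measured genes that lead to interferon production, 1 rose and 1 fell (6.67% each), near the 9.44% and 8.52% of all genes. Tlr9, the endosomal DNA receptor, stood at −0.52, −0.41 and −0.14 with MIG and at 1.17, 1.34 and 1.16 with MIG-Hhex. It rose 3.00-fold (log2 1.58, SE 0.17, limma adjusted p = 0.00316) and was called in all 9 fits with libraries dropped. Its adaptor Myd88 fell by 0.30 (SE 0.07, limma adjusted p = 0.028), a call that held in 1 of the 9 runs (up to 0.0842). Of 9 genes that restrain the response, 4 rose (44.4%) and 0 fell, against the same shares of all genes. Socs1, which inhibits JAK kinases, rose by 0.66 (SE 0.17), Cish, of the same family, by 0.63 (SE 0.13), Samhd1, which depletes nucleotides, by 0.48 (SE 0.09) and the phosphatase Ptpn6 by 0.35 (SE 0.07). They were called in 3, 3, 6 and 6 of the 9 fits (largest limma adjusted p 0.166, 0.122, 0.0713 and 0.0925).

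**Figure D5:**
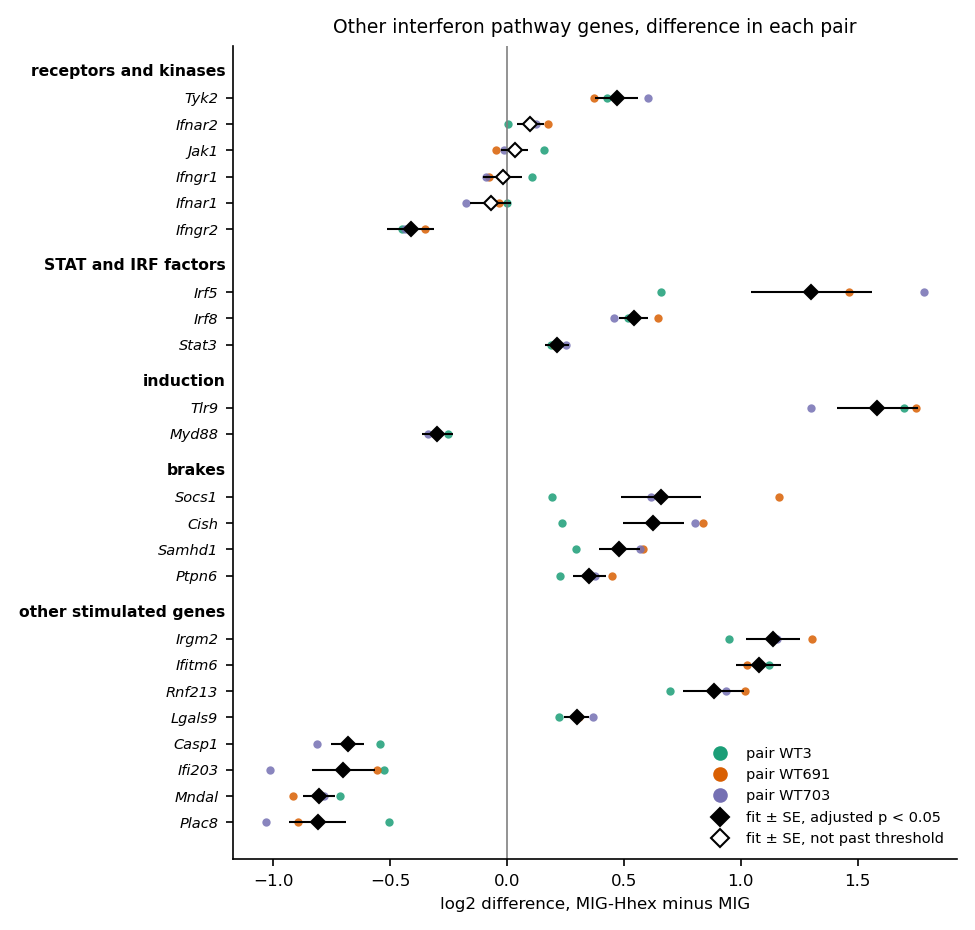
Difference between MIG-Hhex and MIG on the log2 scale (x axis) for genes of the interferon pathway named in the text outside the 43 (y axis, by list), in each replicate pair (coloured points) and in the fit with its standard error (diamonds, filled where the adjusted p was under 0.05). The receptor chains Ifnar1, Ifnar2 and Ifngr1 lie near 0, while Mndal, Plac8, Ifi203 and Casp1 lie between −0.81 and −0.68.

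Of 68 measured interferon-stimulated genes outside the 43, 12 rose (17.6%) and 6 fell (8.82%), with a median of 0.17. Over all genes 9.44% rose and 8.52% fell, so the share that fell was near that of all genes. Irgm2, a relative of Igtp, rose 2.20-fold from 1.59, 1.95 and 1.88 to 2.55, 3.26 and 3.04 (limma adjusted p = 0.0024). Ifitm6, of the family that blocks viral entry, rose by 1.08 (SE 0.10), Rnf213, a giant ubiquitin ligase, by 0.88 (SE 0.13) and Lgals9, a galectin, by 0.30 (SE 0.05). Mndal and Ifi203, members of the nuclear p200 family, fell by 0.81 (SE 0.07) and 0.70 (SE 0.13). Mndal went from 4.28, 4.56 and 4.56 to 3.57, 3.64 and 3.78 without overlap (limma adjusted p = 0.00162). Casp1, the inflammasome protease, fell by 0.68 (SE 0.07), and Plac8, abundant in myeloid progenitors, by 0.81 (SE 0.12). All but Lgals9, Ifi203 and Plac8 were called in each of the 9 fits. Those 3 reached limma adjusted p = 0.106, 0.0689 and 0.0764.

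Markers of other cell types were read in the same libraries. Over all genes 9.44% rose and 8.52% fell, the shares to set beside each count here. In bulk RNA, more cells of a type and more RNA per cell cannot be told apart. Most neutrophil genes were higher with MIG-Hhex: of 8 measured of 10, 6 rose and 1 fell. Mmp8 was the one that fell (−1.94, SE 0.35, limma adjusted p = 0.015), with every MIG-Hhex library below every MIG library. The summed level of the 8, on the linear scale of the deposited values, ran from 1590 to 3008 with MIG and from 3378 to 4567 with MIG-Hhex. S100a8 and S100a9, with the highest log2 means of the list (10.6 and 10.1), weigh most in this sum. Of 11 measured genes of macrophages, monocytes and dendritic cells, 5 rose and 1 fell, and the sums overlapped (165 to 190 against 137 to 175). The 5 that rose were Marco (3.26, SE 0.66), Itgax (3.04, SE 0.22), Zbtb46 (1.61, SE 0.42), Adgre1 (1.42, SE 0.20) and Cx3cr1 (0.87, SE 0.19). Ccr2 was the one that fell (−2.04, SE 0.17). It had the highest MIG mean of the list (6.18) and weighs much in the MIG sums. Plasmacytoid dendritic cells, a main source of type I interferon, had 5 of 10 markers measured, with 1 higher and 1 lower. Their sums were 21.6 to 29.6 against 27.1 to 34.5. Siglech was among those not measured, and Ccr9 and Pacsin1 lay below 0 in every library. Tcf4 was present at 2.58 to 3.84 and was the one called lower (−0.50, SE 0.09, limma adjusted p = 0.0169). Smim5 was the one called higher (1.31, SE 0.12, limma adjusted p = 0.00193). Mast cell and basophil markers gave 0 higher and 3 lower of 6, with sums of 199.7 to 407 against 117 to 199.99. The part of these cell types in the differences above was not tested.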

How the data were processed

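Messenger RNA libraries of 6 sorted cell samples were compared, 3 MIG and 3 MIG-Hhex. The authors deposited 1 log2 value per gene and library, and their processing notes name Subread, featureCounts, limma and edgeR with mm10; versions, order, filters, offset and normalization are not stated there. Adding log2 exon length (GENCODE M21, 11740 genes) brought the sorted values of the libraries closer (mean gap 0.0606 to 0.0215), so the values are read as per length. Whether an overall change of RNA per cell was removed cannot be told. Depth is unknown, and no interval for counting error is given.

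The deposited log2 values were fitted with limma 3.58.1 in R 4.3.3, with terms for flow cell and vector and a trended eBayes prior. Two-sided p-values were adjusted by Benjamini-Hochberg across the 12161 genes, threshold 0.05. Replicate numbers pair the libraries: deviations from the group means correlated at 0.742, 0.585 and 0.656 for WT3, WT691 and WT703, a check in which same-numbered libraries also share a flow cell. Within flow cell C5LWPANXX, MIG and MIG-Hhex libraries of different numbers correlated at 0.166 and 0.0867. In values simulated for this comparison (12161 genes, 200 changed), 74% of changes of 1 on the log2 scale and 93% of changes of 2 were called. The simulated noise was independent between libraries, without the correlation of same-numbered ones. In the real fit 18.0% of all genes were called. The simulated percentages are thus a check of the method and not the sensitivity in these data. Coordinates are from RefSeq, GRCm38.p6, which matched all 43 genes.

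The members and lists were chosen with earlier results of these data known. Values in every library are given for members past the threshold, Irf1, Irf7, Irf9, Stat2, Isg15, Ifit1, Rsad2 and the highest member of each role group. Dhx58, Mx1, Oasl2, Gbp3, Ifnlr1, Il10rb and Jak2 were added after their values were seen. Pathway genes named are Ifnar1, Ifnar2, Ifngr1, Ifngr2, Jak1, Tyk2 and up to 4 called genes per list and direction; some genes that count in the lists are not reported here by name. The alternatives were other batch terms, eBayes settings, filters, offset and normalization, and left-out libraries.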

Additional observations from a re-analysis of the deposited data

How the results depend on the processing

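The median difference of the 43 genes stayed positive in each alternative, with 0.30 to 0.75 in the 9 runs that left out libraries, and 37 to 42 of the genes had a positive difference there. The number called was less stable, over all genes too (limma throughout): 1148 genes were higher in the reported fit, 355 to 835 in the left-out runs, 119 without the flow cell term and 791 without a mean-variance trend. In the left-out runs 2 to 10 members were higher and 0 lower (Ifit2 kept an unadjusted p under 0.05 in each), and 5 to 18 other pathway genes were higher and 3 to 8 lower. Over all genes 2.92% to 6.87% were higher and 2.22% to 5.21% lower in those runs. Without the flow cell term 0 members were higher and 0 lower (16 and 1 at an unadjusted p under 0.05), and 1 and 1 of the other pathway genes. Of all genes, 0.979% were higher and 0.806% lower in that fit. With the replicate block the counts were 19 members higher and 34 other pathway genes higher, against 12.4% of all genes. Without a mean-variance trend they were 7 members, 11 other pathway genes higher and 5 lower. Within flow cell C5LWPANXX 0 members were lower (1 at an unadjusted p under 0.05) and 4 other pathway genes lower, against 4.27% of all genes. The causes were not tested. With 1 added on the linear scale the members' median was 0.31, with 10 higher (9.49% of all genes). Keeping only genes with a mean above 0 tested 34 members and called 9 higher (9.63% of all genes tested there). Of 49 single genes followed, 0 changed sign under these settings except Jak1, at −0.030 within flow cell C5LWPANXX. When libraries were left out, Jak1 ran from −0.030, in the 3 runs that dropped WT3 libraries, to 0.073. Ifnar1 ran from −0.13 to 0.0065, the latter without the MIG-Hhex library of WT703. Ifngr1 ran from −0.083 to 0.053 and was at 0.049 without the MIG library of WT691, 0.053 without the MIG-Hhex library of WT703, 0.0091 without both WT691 and 0.015 without both WT703 libraries. None of these was called. The unknown depth limits what can be said of genes with values below 0.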

Other observations

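Further interferon-stimulated genes outside the 43 that passed the test are listed here because of that result. Ifi27l2a, a small membrane protein, rose by 2.62 (SE 0.66), Phf11b by 1.74 (SE 0.37), the chemokine Cxcl10 by 1.49 (SE 0.36), Cd274 (the checkpoint ligand PD-L1) by 0.76 (SE 0.17) and the nuclear body gene Sp140 by 0.62 (SE 0.12). Trim56 and Shisa5 rose by 0.54 and 0.38. Epsti1 fell by 0.70 (SE 0.14) and Fbxw17 by 0.54 (SE 0.11). Ifi27l2a varied most between the MIG libraries, at 2.29, 0.61 and −1.34 in WT3, WT691 and WT703, and was close together with MIG-Hhex, at 3.36, 3.49 and 2.55. It was called in 4 of the 9 fits with libraries dropped (largest limma adjusted p 0.132). The others of this paragraph were called in 0 to 4 of the 9.

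The libraries of WT703 differed from the rest in genes of the sex chromosomes. The X-inactivation RNA Xist stood at 2.57 to 4.73 in the 4 libraries of WT3 and WT691 and at −4.63 and −7.55 in those of WT703. The Y-linked gene Ddx3y stood at 4.71 and 4.72 in the WT703 libraries and below −4 in the others. Libraries with the same replicate number were thus alike in both genes.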
